A study of Mus musculus with 30 samples.

Results

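The 9 genes described here encode the acetylcholine receptor of skeletal muscle and the proteins that gather it under the motor nerve ending. Chrna1, Chrnb1, Chrnd, Chrng and Chrne encode the receptor's subunits, Lrp4, Musk and Dok7 the machinery that receives the nerve's signal, and Rapsn the scaffold that holds the receptors together. They were picked by gene symbol out of 55154 genes matched over the 3 deposited count tables, and all 9 were found in all 30 libraries. The choice was made with earlier results of the same libraries known, so their levels and fold changes are given as a description, without p-values.

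The muscle receptor is a pentamer of alpha1, beta1 and delta subunits with either gamma, the subunit of fetal and denervated muscle, or epsilon, which takes its place in innervated adult fibres. At the synapse, agrin released by the nerve binds LRP4, LRP4 activates the kinase MuSK, DOK7 amplifies MuSK's activity from inside the cell, and rapsyn anchors the receptors in clusters. In a mature fibre these genes are transcribed mainly by the nuclei beneath the nerve ending. During muscle formation they are switched on as myoblasts leave the cell cycle and fuse, under myogenic factors such as myogenin that bind E-box motifs. Satellite cells, the stem cells of muscle, lie beside the fibre as single cells with no synapse of their own.

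By their labels the cells were satellite cells of C57BL/6 hind limb muscle, fixed inside the animal by perfusion with paraformaldehyde (PFA) before they were isolated. Each of the 15 groups had 2 libraries. Groups were collected 0.5, 1, 2, 4, 8, 16, 32 and 60 h and 7, 14 and 28 d after injury by injection of BaCl2, a salt that kills muscle fibres, and from uninjured muscle. Old mice gave 3 more groups: oASC, activated cells 2.5 d after the same injury; oFISC, freshly isolated cells; and oQSC, quiescent cells fixed in place without injury. The labels of oFISC also name the BaCl2 injury, which is at odds with a freshly isolated sample, and oFISC is used here as labelled. No ages are given in the labels. All groups share the strain and the PFA protocol in the labels. That protocol is at odds with the name of oFISC, which sets freshly isolated cells apart from cells fixed in place. Whether oFISC was fixed is therefore not certain. Nothing says whether the libraries of a group came from separate animals, so the tests measure the spread between libraries only.

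Libraries held 9182407 to 57441790 counts. Pax7, the transcription factor that defines satellite cells, was counted in every library, at 1750 and 1560 CPM (counts of a gene scaled to the size of its library) in uninjured muscle. Its level was far lower in several other groups. The lowest was oASC (10.5 and 10.2 CPM), followed by oFISC (38.6 and 31.8 CPM) and 8 h (55.1 and 35.0 CPM). Libraries of 60 h held more Pax7 than those of oASC (156 and 148 CPM). The oQSC libraries went against their label on this marker, with 84.5 and 72.7 CPM of Pax7 and 1070 and 1540 CPM of Myod1, a factor of activated cells, where uninjured muscle had 41.4 and 50.8 CPM of Myod1. The libraries of 0.5 to 4 h stood apart as well, since at each time one library had much more Pax7 and much less Myod1 than the other. A lower level in a bulk library can come from fewer cells of a type or from less RNA per cell, which cannot be told apart. CPM values share one scale over all 30 libraries, and fold changes are on the log2 scale with their standard errors.

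**Figure D1:**
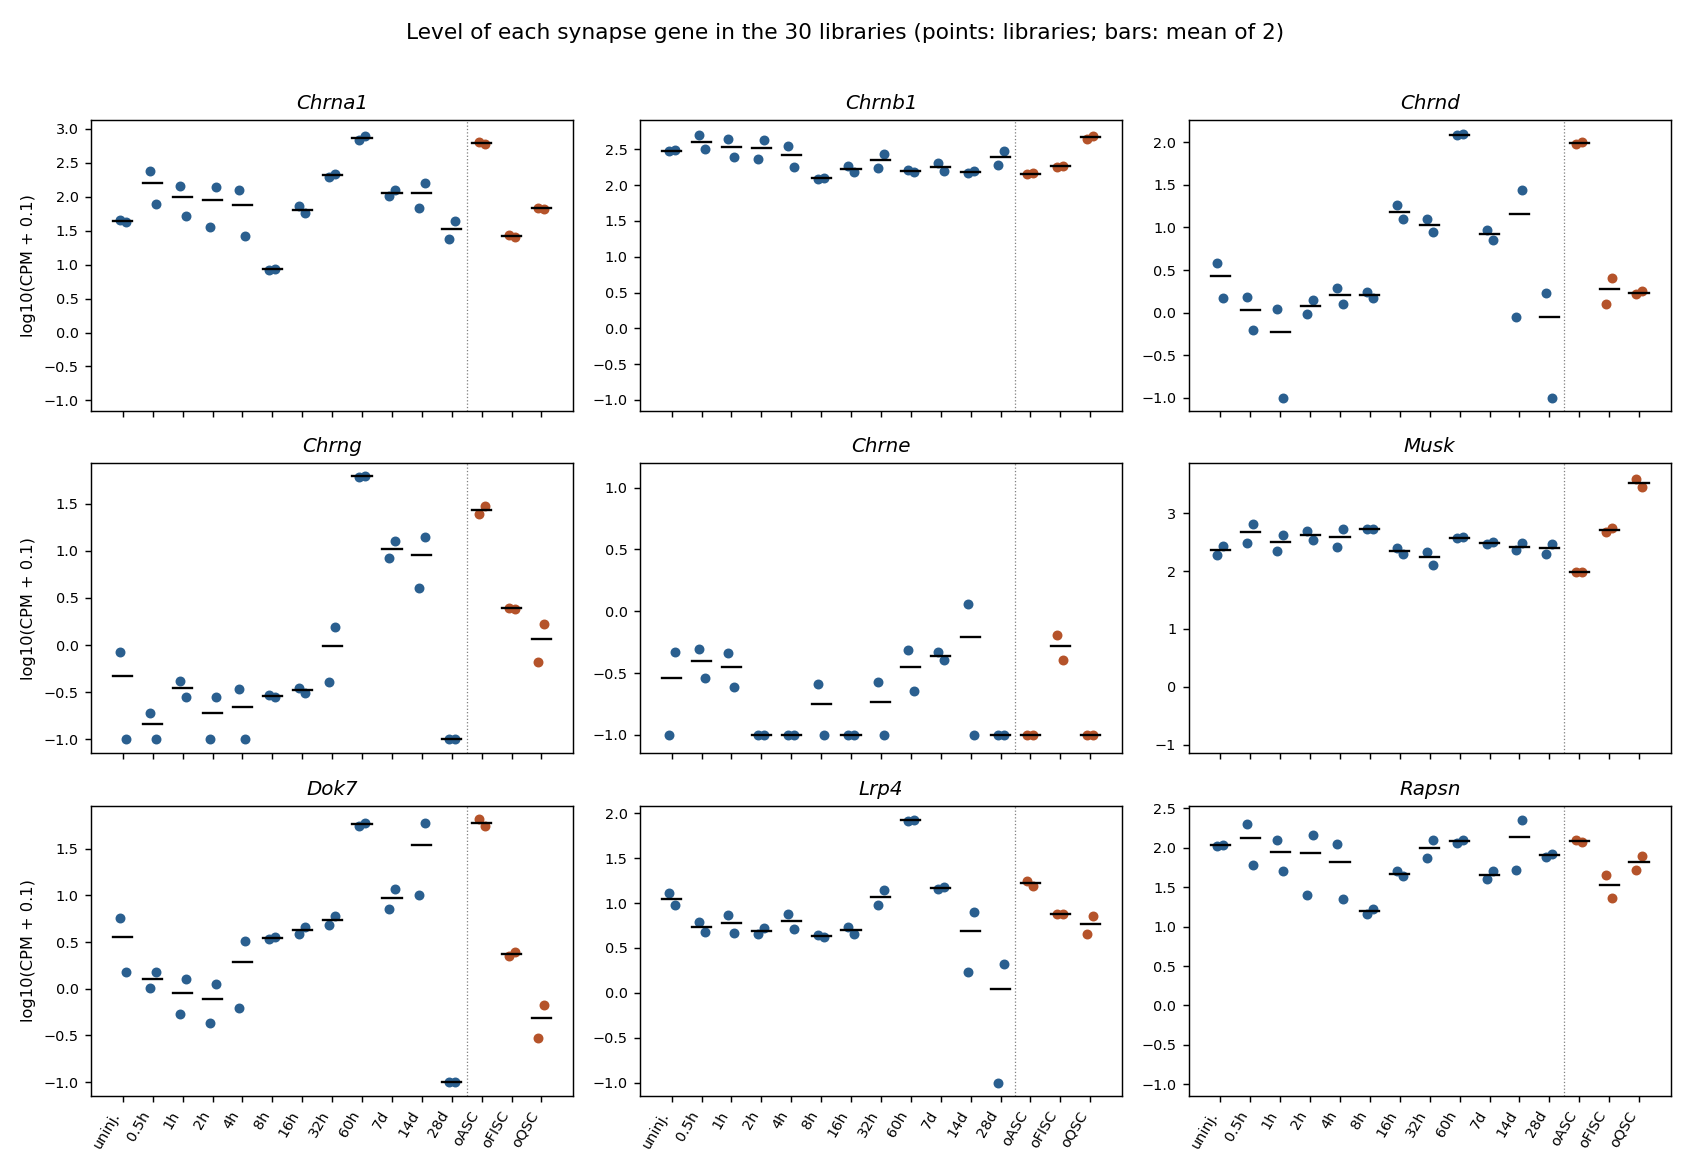
Level of each of the 9 genes in the 30 libraries as log10(CPM + 0.1), with a library at 0 counts drawn at -1. Points are libraries, bars the mean of the 2 libraries of a group, blue the time course and brown the old groups; Chrnd, Chrng, Dok7 and Lrp4 peak at 60 h and in oASC, Musk stands highest in oQSC, and Chrne stays near 0 throughout.

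The promoters of 4 genes are shown as examples of different patterns: Chrna1 and Chrng were highest at 60 h, Chrne was near 0 in every group, and Musk was highest in oQSC. Each line gives the 250 bases before the RefSeq transcription start (GRCm38.p6), written 5′ to 3′ on the gene's strand, with E-boxes (CANNTG) and the N-box (CCGGAA) in capitals.
Chrna1 (chr2:73580339-73580588, minus strand): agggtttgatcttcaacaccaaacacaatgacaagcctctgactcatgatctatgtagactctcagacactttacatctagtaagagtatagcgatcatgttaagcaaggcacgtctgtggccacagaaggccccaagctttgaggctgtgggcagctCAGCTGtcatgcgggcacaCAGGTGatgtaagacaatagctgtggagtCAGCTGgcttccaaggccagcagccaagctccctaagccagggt
Chrng (chr1:87205561-87205810, plus strand): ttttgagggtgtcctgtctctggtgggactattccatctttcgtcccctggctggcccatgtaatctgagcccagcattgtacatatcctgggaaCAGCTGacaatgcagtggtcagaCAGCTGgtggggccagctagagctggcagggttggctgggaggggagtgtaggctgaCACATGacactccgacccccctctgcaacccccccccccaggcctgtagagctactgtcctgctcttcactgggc
Chrne (chr11:70619195-70619444, minus strand): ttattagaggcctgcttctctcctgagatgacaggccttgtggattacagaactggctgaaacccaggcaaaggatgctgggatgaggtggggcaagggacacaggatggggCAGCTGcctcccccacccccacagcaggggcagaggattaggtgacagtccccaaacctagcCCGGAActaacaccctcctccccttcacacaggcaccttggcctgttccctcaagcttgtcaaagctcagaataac
Musk (chr4:58285712-58285961, plus strand): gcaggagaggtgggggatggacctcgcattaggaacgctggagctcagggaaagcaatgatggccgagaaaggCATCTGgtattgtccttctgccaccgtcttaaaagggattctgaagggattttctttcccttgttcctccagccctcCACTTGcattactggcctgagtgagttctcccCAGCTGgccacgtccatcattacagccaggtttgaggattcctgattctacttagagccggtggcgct

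RefSeq promoters were found for 6 of the 9 genes, and Chrnd, Rapsn and Lrp4 had no entry. The windows of Chrna1, Chrng, Musk and Chrnb1 each held 3 E-boxes. Of 32851 mouse promoter windows of the same length, 66.2% held at least 1 and 31.8% at least 2, and the share with 3 is not given. The form CAGCTG, which is one of the E-boxes, stood at 2 places in Chrna1 and in Chrng and at 1 in Musk and in Chrne. At least 1 was present in 13% of all windows, and the share with 2 is not given. The N-box, known from work on synapse-specific transcription as a site of GABP, was searched on both strands and was found in the Chrne window only, among 12% of all windows. The first Dok7 window had 1 E-box, and the second had none. For Chrng the RefSeq start lies 1154 bases inside the longest GENCODE gene model, so another start would give another window. A match of letters is a description of the window and shows no binding.

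Chrna1 encodes the alpha1 subunit, which carries the acetylcholine binding sites (chr2:73563215-73580338, minus strand, GRCm38). It had 692 and 792 CPM at 60 h, against 46.1 and 41.9 CPM in uninjured muscle, a log2 fold change of 4.07 ± 0.83. In old cells it had 641 and 605 CPM in oASC, against 68.4 and 66.3 CPM in oQSC (3.20 ± 0.20). The 60 h and oASC groups were the highest of the 15 and overlapped neither each other nor any other group. The lowest group was 8 h, with 8.36 and 8.53 CPM. The 16 h libraries had 72.4 and 57.2 CPM and those of 32 h had 195 and 220 CPM. After 60 h the levels were 102 and 124 CPM at 7 d, 68.3 and 159 CPM at 14 d and 24.0 and 43.3 CPM at 28 d. The libraries of 28 d overlapped those of uninjured muscle.

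Chrnd encodes the delta subunit (chr1:87190607-87200070, plus strand). It had 122 and 124 CPM at 60 h, against 3.77 and 1.40 CPM in uninjured muscle (5.59 ± 1.05). In oASC it had 94.8 and 102 CPM, against 1.54 and 1.70 CPM in oQSC (5.91 ± 0.35). No library outside these 2 injured groups came above 27.4 CPM. Chrnd had 18.1 and 12.4 CPM at 16 h, above both uninjured libraries, and 12.5 and 8.80 CPM at 32 h, but neither difference passed the test. At 14 d the 2 libraries were far apart, with 0.799 and 27.4 CPM, or 10 and 349 counts.

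Chrng encodes gamma, the fetal subunit (chr1:87204657-87212694, plus strand). It had 61.3 and 61.6 CPM at 60 h, against 0.735 and 0 CPM in uninjured muscle (7.59 ± 1.51). In oASC it had 24.7 and 29.7 CPM, against 0.559 and 1.58 CPM in oQSC (4.65 ± 0.44). The groups did not overlap in either comparison, but the uninjured value rests on 8 counts in library 1 and 0 in library 2. The change at 60 h was 6.37 without library 2, and without library 1 the uninjured level is 0 and no fold change is given. At 32 h the level was 0.310 and 1.46 CPM. It was 8.20 and 12.6 CPM at 7 d (5.04 ± 1.26 against uninjured muscle) and 3.92 and 13.8 CPM at 14 d (4.81 ± 1.25). At 28 d neither library had a count, which allows a level of up to 0.101 CPM (3 counts over the group, covering counting error only). That is at least 606-fold lower than at 60 h and at least 103-fold lower than at 7 d.

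Chrne encodes epsilon, the subunit of innervated adult muscle (chr11:70614883-70619216, minus strand). It was at 0 counts in 16 of 30 libraries, and its highest count in any library was 13. Both libraries of 2, 4 and 16 h, 28 d, oASC and oQSC were at 0, which in oASC allows a level of up to 0.0301 CPM. The gene failed the filter on low counts in the fit of the time course to 60 h and in the fit of the old cells. Its model overlaps 4930544D05Rik on the other strand, and it is not stated whether the counts use strand.

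Gamma counts over gamma plus epsilon counts gave the share of the fetal subunit within a library, a ratio that does not depend on scaling between libraries. The shares are of counts and were not divided by exon length, which is 4163 bases for Chrng and 1690 for Chrne. Per exon base the share would be lower wherever both genes had counts. At 60 h it was 99.6% (95% exact Clopper-Pearson interval 99.3 to 99.8%), from 2889 Chrng and 12 Chrne counts. In oASC it was 100% (99.9 to 100%), from 2718 and 0 counts. A share near this was not limited to 60 h and oASC: in oQSC, without injury, it was also 100% (94.9 to 100%), from 70 and 0 counts. At 32 h it was 90% (79.5 to 96.2%) with both libraries pooled. These differed, at 64.7% (38.3 to 85.8%) in library 1 and 100% (91.8 to 100%) in library 2. In oFISC the share was 85.7% (77.2 to 92.0%). In uninjured muscle the share was 50% (24.7 to 75.3%) from 8 and 8 counts, all 8 of one gene in one library and all 8 of the other gene in the other. The share was 96.9% (94.1 to 98.6%) at 7 d. At 14 d it was 79.0% (66.8 to 88.3%) in library 1 and 100% (97.9 to 100%) in library 2. The libraries of 28 d had no count of either gene, so no share can be given.

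Chrnb1 encodes the beta1 subunit (chr11:69784036-69795943, minus strand) and did not share the peak of Chrna1, Chrnd and Chrng. It had 162 and 152 CPM at 60 h, against 297 and 312 CPM in uninjured muscle (-0.96 ± 0.42), a difference that did not pass the test. In oASC it was lower, with 142 and 148 CPM, against 449 and 481 CPM in oQSC (-1.69 ± 0.19). Its group means over all 15 groups lay between 126 CPM at 8 h and 465 CPM in oQSC. Per kilobase of exon, Chrnb1 was the most abundant subunit in both uninjured groups, at 120 ± 4.24 CPM per kb in uninjured muscle and 184 ± 9.19 in oQSC (SD, n = 2). Chrna1 was the most abundant at 60 h, with 170 ± 16.3 CPM per kb, and in oASC, with 142 ± 5.66. In every other group, also those after injury, the mean of Chrnb1 lay above that of Chrna1. At 32 h these were 88.1 ± 26.7 and 47.3 ± 4.1, and at 7 d 71.6 ± 14.3 and 25.6 ± 3.61.

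**Figure D2:**
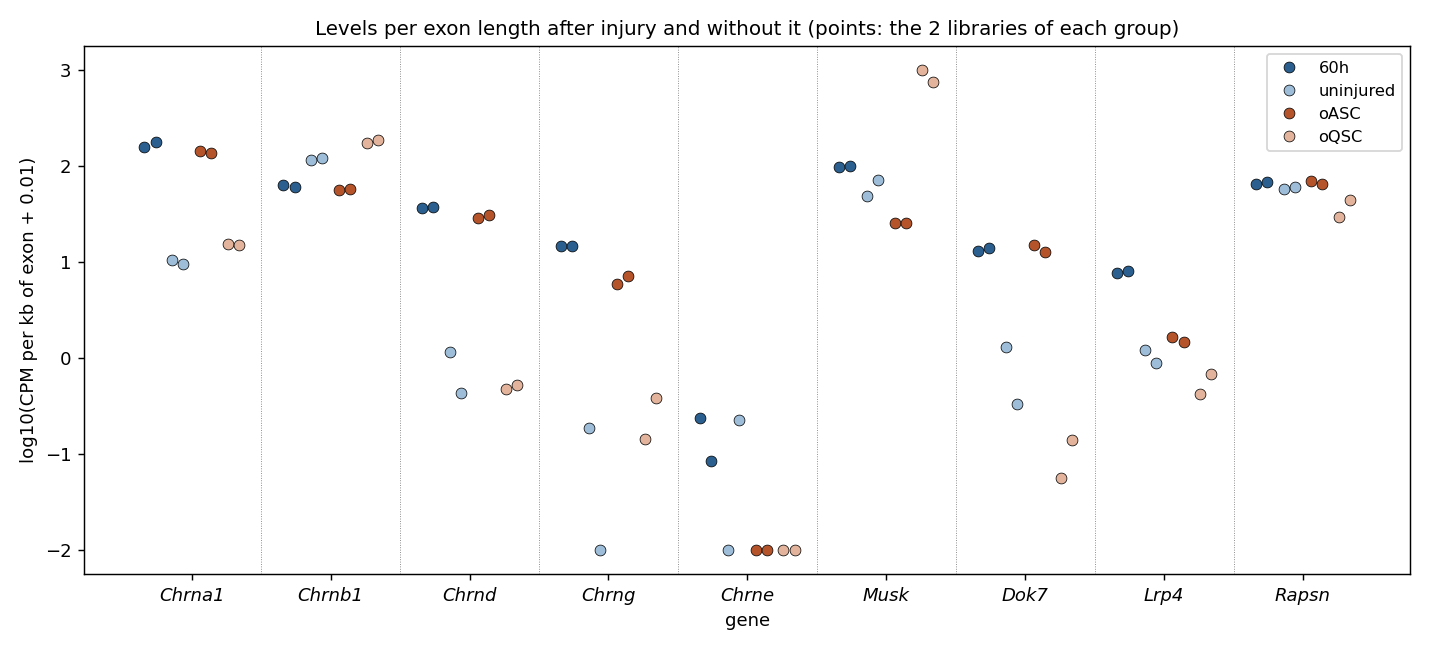
Level of each gene per exon length, as log10(CPM per kb of exon + 0.01), in the 2 libraries of 60 h, uninjured, oASC and oQSC; a library at 0 is drawn at -2. Chrna1, Chrnd, Chrng, Dok7 and Lrp4 lie higher in the injured group of each pair, and Musk in oQSC lies above every other point.

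Musk encodes the receptor kinase that organises the synapse (chr4:58285960-58374303, plus strand). It had 3820 and 2870 CPM in oQSC, or 116365 and 96154 counts, the highest level of any of the 9 genes in any group. In the other groups of old cells it had 96.8 and 97.8 CPM in oASC and 469 and 554 CPM in oFISC. The oASC group was the lowest of the 15 and oQSC the highest, and neither overlapped another group. Against oQSC, Musk was lower in oASC by a log2 fold change of -5.12 ± 0.30 and in oFISC by -3.10 ± 0.27. In the time course it had 372 and 380 CPM at 60 h, against 186 and 270 CPM in uninjured muscle (0.71 ± 0.49), and no time point passed the test for Musk. Means of the time course ran from 172 CPM at 32 h to 534 CPM at 8 h.

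Dok7 encodes the adaptor that binds MuSK inside the cell (chr5:35056766-35087839, plus strand). It had 55.6 and 60.0 CPM at 60 h, against 5.60 and 1.40 CPM in uninjured muscle (4.05 ± 0.88). In oASC it had 65.2 and 54.9 CPM, against 0.197 and 0.566 CPM in oQSC (7.26 ± 0.41). The 60 h and oASC groups overlapped each other and the groups they were set against lay far below. At 14 d Dok7 had 9.91 and 59.5 CPM, or 124 and 756 counts (3.33 ± 0.86 against uninjured muscle, and 1.33 without library 2 of 14 d). At 28 d it had no count in either library, at least 570-fold lower than at 60 h. In oFISC the level was 2.16 and 2.35 CPM, higher than in oQSC (2.16 ± 0.41).

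Lrp4 encodes the agrin receptor (chr2:91457511-91513779, plus strand). It had 81.2 and 85.1 CPM at 60 h, against 12.7 and 9.35 CPM in uninjured muscle (2.91 ± 0.37). In oASC it had 17.5 and 15.4 CPM, against 4.37 and 7.03 CPM in oQSC (1.52 ± 0.29). Lrp4 at 60 h was the highest group and overlapped no other, the second being oASC. It was lower than in uninjured muscle at 8 h, with 4.36 and 4.07 CPM (-1.41 ± 0.36), and at 16 h, with 5.34 and 4.37 CPM (-1.17 ± 0.35). At 28 d it had 0 and 1.99 CPM, or 0 and 29 counts (-3.47 ± 0.87, and -2.54 without the library at 0).

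Rapsn encodes rapsyn, the receptor scaffold (chr2:91035620-91045729, plus strand, with Gm13778 overlapping it on the minus strand). It had 116 and 125 CPM at 60 h, against 105 and 109 CPM in uninjured muscle (0.17 ± 0.80). In oASC it had 127 and 117 CPM, against 52.9 and 79.6 CPM in oQSC (0.88 ± 0.31). Neither difference passed the test, although the groups did not overlap in either. The lowest group was 8 h, with 14.5 and 16.8 CPM (-2.80 ± 0.86 against uninjured muscle). At 14 d the libraries had 51.7 and 222 CPM.

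The comparison of 60 h with uninjured muscle asks which synapse genes differ in satellite cells after injury. Of the 8 members tested, 5 were higher (Chrna1, Chrnd, Chrng, Dok7 and Lrp4) and 0 lower, where 15.5% of all 22479 genes were higher and 28.3% passed in either direction (edgeR quasi-likelihood test, adjusted p under 0.05). The same 5 genes passed when any one library of the 2 groups was left out. Myog, the gene of myogenin, had 136 and 148 CPM at 60 h, against 31.2 and 9.35 CPM in uninjured muscle, and did not pass the test (2.80 ± 1.3, adjusted p = 0.126, edgeR). The 6 markers of fusing and embryonic muscle cells summed to 95.2 and 119 CPM at 60 h, against 13.3 and 1.07 CPM, and 2 of the 5 tested rose. Of the 10 markers of adult fibres 3 were higher, with sums of 343 and 377 CPM against 223 and 167 CPM, and Mb, Myh2 and Myh4 were at 0 in all 4 libraries. Of the 5 immune markers 3 were higher, with sums of 161 and 33.6 CPM against 3.03 and 0.976 CPM, Adgre1 and Itgam being at 0 in both uninjured libraries. Of 5 endothelial markers 2 were lower, with sums of 7.06 and 7.58 CPM at 60 h, against 32.9 and 66.6 CPM. Of 5 Schwann cell markers 2 were lower, with sums of 3.15 and 2.21 CPM, against 12.9 and 18.8 CPM. One fibro-adipogenic marker of 4 was higher, and of 6 satellite cell markers 1 was higher and 1 lower. The part of these cells in the synapse genes' levels was not tested.

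Between 60 h and 32 h, 3 of 8 members passed, all higher at 60 h, where 3.69% of all genes passed in either direction, 1.04% higher and 2.65% lower. Chrng differed by 6.13 ± 1.36, Dok7 by 3.43 ± 0.84 and Lrp4 by 2.84 ± 0.37. Without any one of the 4 libraries only Lrp4 passed, where 0.235 to 1.42% of all genes did. Of 5 endothelial markers 3 were lower at 60 h, with sums of 7.06 and 7.58 CPM, against 67.3 and 56.2 CPM at 32 h. Lower as well were 2 of 10 markers of adult fibres, 1 of 4 fibro-adipogenic and 1 of 5 Schwann cell markers, and the part of these cells was not tested. Chrna1 had 692 and 792 CPM at 60 h, against 195 and 220 CPM at 32 h, and did not pass the test (1.83 ± 0.76). At 32 h itself 0 of 8 members passed against uninjured muscle with edgeR, 2 at an unadjusted p under 0.05 and 1 with DESeq2, where 20.5% of all genes passed with edgeR, 14.1% higher and 6.44% lower. Of 5 immune markers 4 were higher there, with sums of 46.1 and 403 CPM, against 3.03 and 0.976 CPM in uninjured muscle. Higher as well were 4 of 10 adult fibre, 3 of 4 fibro-adipogenic and 2 of 5 endothelial markers, and 1 of 6 satellite cell markers was lower.

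At 8 h after injury, of the 8 members tested, 4 were lower than in uninjured muscle (Chrna1, Chrnb1, Rapsn and Lrp4) and 0 higher, where 14.0% of all genes were lower and 30.1% passed in either direction. Chrna1 had 8.36 and 8.53 CPM at 8 h, against 46.1 and 41.9 CPM in uninjured muscle (-2.41 ± 0.78). Rapsn had 14.5 and 16.8 CPM, against 105 and 109 CPM. Musk had 534 and 535 CPM, against 186 and 270 CPM, and did not pass the test (1.2 ± 0.49). Calls over all genes fell to 8.17 to 10.9% when any one of the 4 libraries was left out, and in those fits 0 members passed without library 1 of uninjured muscle or without either library of 8 h, and 1 passed without library 2 of uninjured muscle. Markers of fibro-adipogenic cells summed to 250 and 146 CPM at 8 h, against 44.9 and 26.9 CPM, with 3 of 4 higher. Of 10 markers of adult fibres 6 were higher and 1 lower, of 5 endothelial markers 2 were higher, and of 6 satellite cell markers 2 were higher and 2 lower, Pax7 among the lower. At 16 h 4 of 10 adult fibre markers were higher and 1 lower, and 3 of 4 fibro-adipogenic markers were higher. At that time 1 of 5 fusion markers tested and 1 of 6 satellite cell markers were lower. The part of these cells was not tested at 8 h or at 16 h. At 16 h only Lrp4 passed, where 22.7% of all genes did and 8.50% were lower, and it no longer passed without any one of the 4 libraries, where 5 to 11.6% of all genes did.

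**Figure D3:**
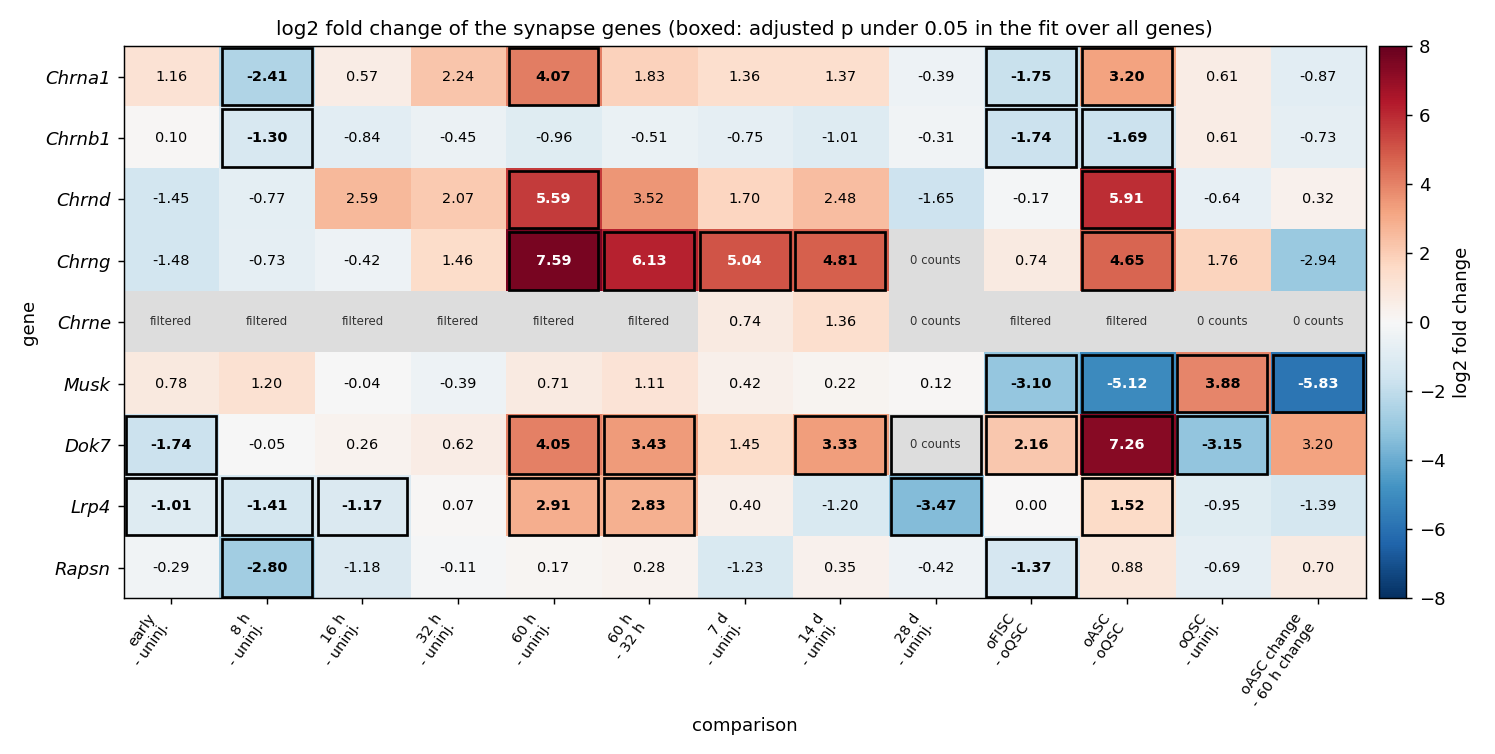
log2 fold change of each gene (rows) in the 13 comparisons (columns), red for higher and blue for lower in the first-named group. Boxes mark adjusted p under 0.05 in the fit over all genes, "filtered" a gene below the filter on low counts and "0 counts" a comparison with a group at 0 counts in both libraries; 5 boxes are higher at 60 h and 5 in oASC.

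The 8 libraries of 0.5 to 4 h split within each time. More Pax7 was counted in library 1 at 0.5, 1 and 4 h and in library 2 at 2 h. Chrna1 had 236 CPM in library 1 and 77.9 CPM in library 2 of 0.5 h, with 143 against 52.0 CPM at 1 h, 35.7 against 141 CPM at 2 h, and 126 against 25.9 CPM at 4 h. Rapsn moved with it, at 202 CPM in library 1 and 60.7 CPM in library 2 of 0.5 h, with 124 against 50.8 CPM at 1 h, 24.8 against 146 CPM at 2 h, and 110 against 22.6 CPM at 4 h. Musk went the opposite way, at 308 CPM in library 1 and 636 CPM in library 2 of 0.5 h, with 221 against 416 CPM at 1 h, 488 against 338 CPM at 2 h, and 260 against 522 CPM at 4 h. Chrnb1, Chrnd, Chrng and Lrp4 were higher in the library with more Pax7 at 4 of 4 times, and Dok7 was lower there at 3 of 4. The libraries with little Pax7 had 1510 to 2160 CPM of Myod1, the others 82.7 to 162 CPM. Whether these libraries differ in cells, in handling or in another way was not tested.

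**Figure D4:**
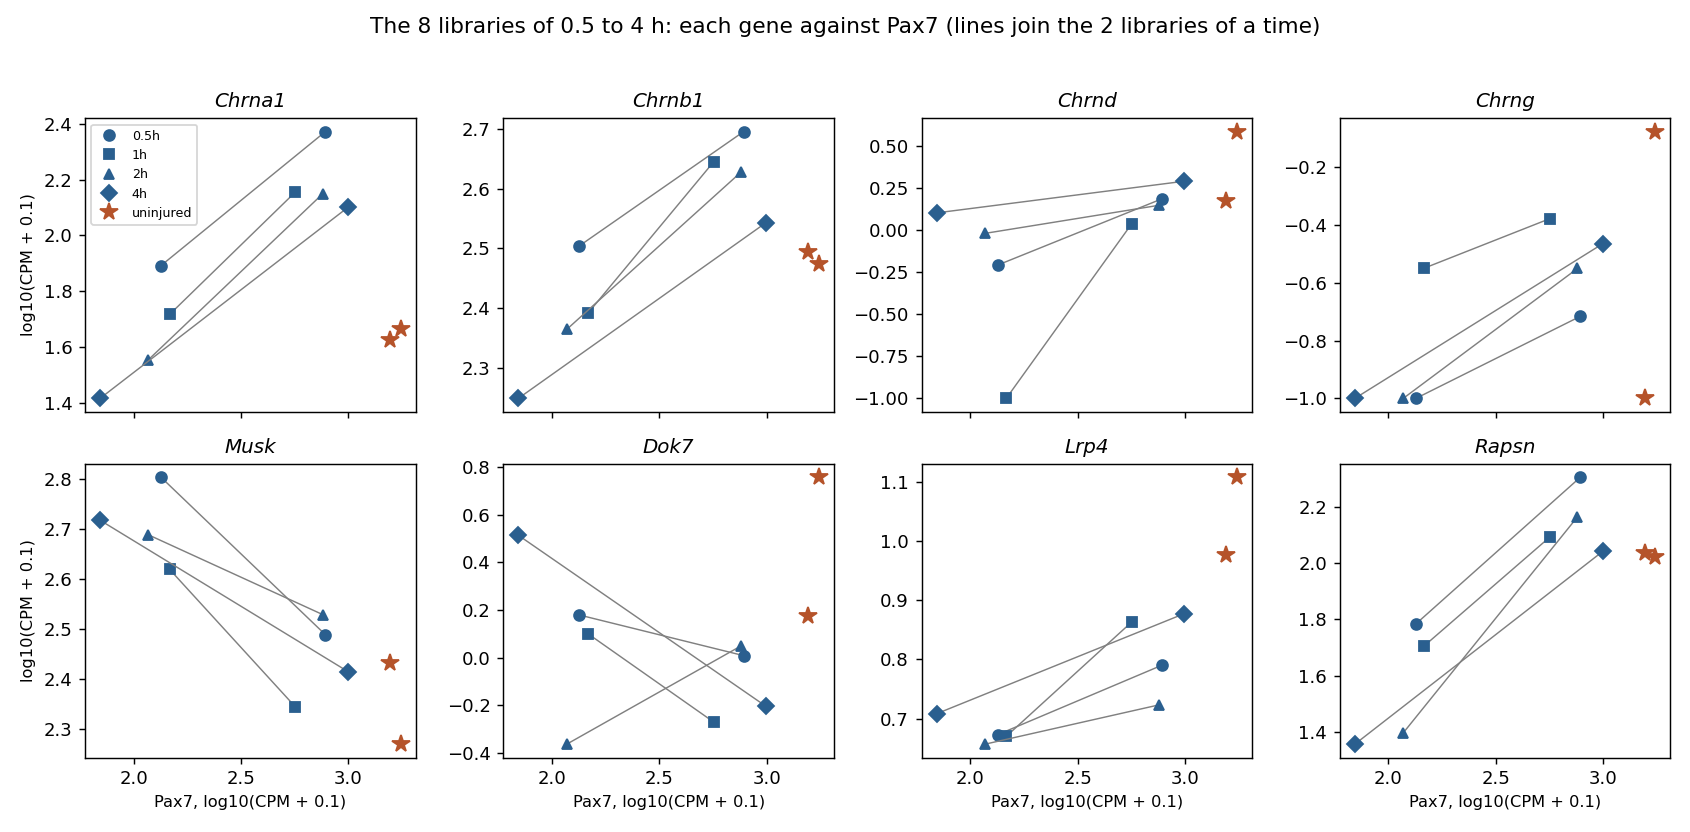
Each gene against Pax7 in the 8 libraries of 0.5, 1, 2 and 4 h, both as log10(CPM + 0.1), with grey lines joining the 2 libraries of a time and stars for the uninjured libraries. Lines rise towards more Pax7 for Chrna1, Chrnb1, Chrnd, Chrng, Lrp4 and Rapsn and fall for Musk at all 4 times.

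Taking the mean of the 4 early times against uninjured muscle, 2 of 8 members passed, where 23.0% of all genes did and 10.4% were lower. Both were lower: Dok7 by a log2 fold change of -1.74 ± 0.59 and Lrp4 by -1.01 ± 0.26. Without library 1 of uninjured muscle 0 members passed, and the change of Dok7 was -0.42, where 5.26% of all genes passed. Only 1 passed without library 2 of uninjured muscle, library 1 or 2 of 0.5 h, or library 1 of 2 h. Lrp4 had 4.44 to 7.44 CPM in the 8 early libraries, all below the 12.7 and 9.35 CPM of uninjured muscle. In the early mean 6 of 10 markers of adult fibres, 3 of 5 endothelial, 3 of 4 fibro-adipogenic, 2 of 6 satellite cell and 1 of 5 immune markers were higher, and 2 fusion markers of 5 tested were lower. The part of these cells was not tested.

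At 7, 14 and 28 d the question is whether the genes return to the uninjured level as the muscle heals. At 7 d only Chrng passed, where 11.2% of all genes did and 5.84% were higher. At 14 d Chrng and Dok7 passed, both higher, where 12.8% did, 6.51% higher and 6.33% lower. At 28 d Dok7 and Lrp4 passed, both lower, where 6.49% did, 2.29% higher and 4.20% lower. Chrng was not called at 7 d without library 2 of either group, and at 14 d neither gene was called without library 2 of 14 d or library 2 of uninjured muscle. At 28 d 0 members passed without library 1 of 28 d and 1 without library 1 of uninjured muscle. Library 2 of 14 d stood apart on related genes too, with 775 CPM of Myog, against 85.2 CPM in library 1, and with 324 CPM of the fusion markers, against 77.6 CPM. Markers of adult fibres summed to 431 and 346 CPM at 14 d, against 223 and 167 CPM in uninjured muscle, with 6 of 10 higher, and to 299 and 109 CPM at 28 d, with 5 of 10 higher. At 7 d 2 of 6 fusion markers, 1 of 10 adult fibre markers and 1 of 4 fibro-adipogenic markers were higher and 2 of 5 endothelial markers lower. At 14 d 3 of 6 fusion and 2 of 4 fibro-adipogenic markers were higher and 1 of 5 endothelial markers lower. At 28 d 1 of 6 fusion and 1 of 6 satellite cell markers were lower. What part these cells have was not tested. The libraries of 7 to 28 d and the uninjured libraries come from different tables, so a difference between tables and one between times cannot be told apart.

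In old mice the comparison of oASC with oQSC asks which genes differ after injury. Of the 8 members tested 7 passed, where 40.3% of all 30099 genes did, 19.0% higher and 21.3% lower: Chrna1, Chrnd, Chrng, Dok7 and Lrp4 were higher, and Chrnb1 and Musk lower. All 7 passed without any one library of the 2 groups. Fusion markers summed to 118 and 151 CPM in oASC, against 14.1 and 13.7 CPM in oQSC, with 5 of 6 higher and none at 0. Fibro-adipogenic markers summed to 55.8 and 47 CPM, against 600 and 512 CPM, with 2 of 4 lower. Endothelial markers summed to 12 and 6.35 CPM in oASC, against 91.3 and 121 CPM in oQSC, with 3 of 5 lower. Schwann cell markers had 3 of 5 lower, satellite cell markers 2 of 6 higher and 4 lower, and immune markers 2 of 5 higher. Of 10 markers of adult fibres 1 was higher and 1 lower. The part of these cells was not tested.

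In oFISC against oQSC, 5 of 8 members passed, where 41.9% of all genes did. Chrna1 had 26.8 and 25.6 CPM in oFISC, against 68.4 and 66.3 CPM in oQSC (-1.75 ± 0.19). Chrnb1 had 178 and 188 CPM, against 449 and 481 CPM (-1.74 ± 0.19). Rapsn had 44.7 and 22.9 CPM, against 52.9 and 79.6 CPM (-1.37 ± 0.32), and lost its call without library 2 of oQSC (-1.09) or library 2 of oFISC (-0.86). Musk was lower too, and Dok7 was the one member that was higher. Adult fibre markers summed to 727 and 81.0 CPM in oFISC, against 143 and 180 CPM in oQSC, with 4 of 10 higher. Fibro-adipogenic markers summed to 116 and 75.9 CPM, against 600 and 512 CPM, with 3 of 4 lower. Satellite cell markers had 1 of 6 higher and 4 lower, with sums of 8560 and 8420 CPM, against 23400 and 20400 CPM. Fusion markers had 3 of 6 higher, endothelial markers 2 of 5 lower, Schwann cell markers 1 of 5 lower, and immune markers 2 of 5 higher and 1 lower. The part of these cells was not tested.

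Against uninjured muscle of the time course, oQSC differed in 2 of 9 members, where 21.6% of all 28823 genes passed, 12.3% higher and 9.31% lower. Musk had 3820 and 2870 CPM in oQSC, against 186 and 270 CPM in uninjured muscle (3.88 ± 0.46). Dok7 had 0.197 and 0.566 CPM, against 5.60 and 1.40 CPM (-3.15 ± 0.90), and lost its call without library 1 of uninjured muscle (-1.80) or library 1 of oQSC (-2.59). Myod1 and Pax7 moved with these, as given above, and fibro-adipogenic markers summed to 600 and 512 CPM in oQSC, against 44.9 and 26.9 CPM, with 3 of 4 higher. Of 10 markers of adult fibres 6 were higher and 1 lower, and of 6 satellite cell markers 2 were higher and 2 lower. Higher as well were 1 of 5 endothelial, 1 of 5 immune and 1 of 6 fusion markers. The part of all these cells was not tested. Age, table and annotation release differ together between the groups and cannot be told apart.

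The change after injury was then compared between old and time-course cells, as the difference oASC minus oQSC set against 60 h minus uninjured. Of 9 members 1 passed, where 7.28% of all genes did, 3.29% in the positive and 3.99% in the negative direction. It was Musk, at -5.83 ± 0.62: it was far lower in oASC than in oQSC, and at 60 h it had 372 and 380 CPM, where uninjured muscle had 186 and 270 CPM. For the genes that rose in both pairs the differences of the changes did not pass, at -0.87 ± 0.91 for Chrna1, 0.32 ± 1.56 for Chrnd, -2.94 ± 1.55 for Chrng, 3.20 ± 1.17 for Dok7 and -1.39 ± 1.07 for Lrp4. These standard errors leave room for differences of several log2 units.

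A wider set of 53 genes in 5 lists was read beside the members. These lists too were chosen with earlier results of the data known. The genes named are among those with the smallest adjusted p in their list, so their p-values are a description. At 60 h 11 of 44 tested passed against uninjured muscle, 7 higher and 4 lower, where 28.3% of all genes did, and the median log2 fold change was 0.63, against 0 for all genes. Among the ligands and receptors of nerve signals 2 of 4 rose: Erbb3, a neuregulin receptor, had 6.42 and 4.77 CPM, against 0.367 and 0.605 CPM (3.48 ± 0.80, adjusted p = 0.00737, edgeR quasi-likelihood test). Nrg1, the neuregulin gene, had 3.74 and 2.51 CPM, against 0 counts in both uninjured libraries. Of 11 genes that signal from MuSK 3 rose and 1 fell. Pak1, a kinase of the actin pathway, had 203 and 205 CPM, against 2.39 and 8.14 CPM (5.25 ± 1.00, adjusted p = 0.00264, edgeR), and Cttn, cortactin, was higher as well (2.14 ± 0.40, adjusted p = 0.0024, edgeR). In both genes all 60 h libraries lay above both uninjured ones. Fyn, a Src-family kinase, had 2.42 and 1.41 CPM, against 17.6 and 19.8 CPM (-3.29 ± 0.71, adjusted p = 0.00501, edgeR).

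Of 16 scaffold and matrix genes 1 rose and 2 fell at 60 h. Dtna, alpha-dystrobrevin, had 13.2 and 11.3 CPM, against 1.84 and 1.91 CPM in uninjured muscle (2.70 ± 0.56, adjusted p = 0.00401, edgeR). Utrn, utrophin of the synaptic membrane, had 63.0 and 57.6 CPM, against 229 and 234 CPM (-1.95 ± 0.51, adjusted p = 0.0133, edgeR). Of 9 regulators tested 1 rose and 1 fell. Gabpa, the DNA-binding subunit of GABP, had 45.1 and 52.5 CPM, against 15.2 and 2.19 CPM (2.49 ± 0.68, adjusted p = 0.0167, edgeR; 4.48 without library 1 of uninjured muscle), and Hdac4, a repressor linked to denervation, had 48.2 and 46.7 CPM, against 282 and 285 CPM (-2.59 ± 0.59, adjusted p = 0.00695, edgeR). The count of 11 was 7 without library 1 of uninjured muscle and 6 without library 2 of 60 h. Without uninjured library 1 the call of Erbb3 was lost, without 60 h library 2 those of Fyn, Hdac4 and Gabpa, and without any one of the 4 libraries those of Nrg1 and Utrn. Pak1, Cttn and Dtna passed in each of these fits.

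At the other times against uninjured muscle the wider genes that passed numbered 11 in the early mean, 20 at 8 h, 15 at 16 h and 11 at 32 h, each of 44 tested, where 23.0, 30.1, 22.7 and 20.5% of all genes passed. They were 9 at 7 d, 10 at 14 d and 6 at 28 d, each of 52 tested, where 11.2, 12.8 and 6.49% of all genes passed. These comparisons share the uninjured libraries. Erbb2, the partner of the neuregulin receptors, had 12.3 and 9.27 CPM at 7 d, 11.6 and 15 CPM at 14 d and 13.7 and 16.9 CPM at 28 d, against 52.5 and 51.0 CPM in uninjured muscle. It passed as lower in the early mean (-1.89 ± 0.27), at 8, 16 and 32 h and at 28 d (-1.76 ± 0.42), but not at 60 h (-0.645 ± 0.375). It was lower at 7 d (-2.26 ± 0.42, adjusted p = 0.00136, edgeR) and at 14 d (-1.96 ± 0.42, adjusted p = 0.00386, edgeR), also without any one library of those groups. Ache, acetylcholinesterase, had 0.240 and 0 CPM at 14 d, against 3.95 and 6.46 CPM (-5.40 ± 0.94, adjusted p = 0.000853, edgeR). The level of Ache at 14 d rests on very few counts, so the size of its change is uncertain. Lama5, a laminin chain of the synaptic matrix, had 17.2 and 19.3 CPM at 28 d, against 85.2 and 84.9 CPM (-2.22 ± 0.32, adjusted p = 0.000245, edgeR). Agrn, the gene of agrin, had 5.35 and 2.57 CPM at 8 h, against 12.9 and 35.3 CPM (-2.64 ± 0.69, adjusted p = 0.0154, edgeR), a call lost without library 2 of uninjured muscle or either library of 8 h.

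Those counts moved with single libraries, as did the share of all genes called. They fell to 5 and 2 in the early mean without library 1 or 2 of uninjured muscle. Leaving out one of the 4 libraries compared gave 3 to 7 at 8 h, 2 to 7 at 16 h, 2 to 7 at 32 h and 1 to 2 at 7 d. At 14 d they were 3 and 4 without uninjured library 1 or 2 and 5 without library 2 of 14 d. At 28 d the count was 1 without library 1 of 28 d. Between 60 h and 32 h 2 of 44 passed, both higher at 60 h, and 1 passed without any one library. Lama5 was that gene, with 146 and 138 CPM at 60 h, against 30.2 and 32.8 CPM at 32 h (2.17 ± 0.29, adjusted p = 0.00352, edgeR).

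In old cells 34 of 53 wider genes passed in oASC against oQSC, 20 higher and 14 lower, where 40.3% of all genes did. All 3 called genes of the ligand and receptor list were higher: Erbb2 had 38.1 and 34.8 CPM in oASC, against 3.12 and 7.24 CPM in oQSC (2.81 ± 0.37, adjusted p = 0.000445, edgeR). Of the genes that signal from MuSK 7 of 11 were higher and 1 lower. Src, a kinase that acts on the receptor, had 6.06 and 6.93 CPM, against 0.723 and 0.477 CPM (3.42 ± 0.39, adjusted p = 0.000205, edgeR). The scaffold list went both ways, with 6 of 16 higher and 6 lower. Plec, the linker protein plectin, had 836 and 756 CPM, against 64.6 and 89.6 CPM (3.36 ± 0.24, adjusted p = 2.29e-05, edgeR), and Sntb2, beta2-syntrophin, had 12.8 and 15.1 CPM, against 141 and 154 CPM (-3.42 ± 0.22, adjusted p = 1.3e-05, edgeR). Of 10 regulators 3 were higher and 3 lower, Hdac4 with 63.9 and 64 CPM, against 268 and 287 CPM (-2.12 ± 0.19, adjusted p = 6.58e-05, edgeR). Of 11 other nicotinic subunits 1 was higher and 4 lower, Chrna7 with 2.01 and 1.27 CPM, against 4.21 and 7.69 CPM (-1.86 ± 0.41, adjusted p = 0.0069, edgeR), a call lost without library 2 of either group.

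In oFISC against oQSC 22 of 53 wider genes passed, 13 higher and 9 lower, where 41.9% of all genes did. Gabpb1, the partner of Gabpa in GABP, had 43.7 and 52.0 CPM in oFISC, against 170 and 138 CPM in oQSC (-2.07 ± 0.22, adjusted p = 0.000227, edgeR). Against uninjured muscle of the time course, oQSC differed in 17 of 52, 9 higher and 8 lower, where 21.6% of all genes passed. Leaving out one of the 4 libraries gave counts of 8 to 10. Gabpb1 had 170 and 138 CPM in oQSC, against 3.40 and 5.81 CPM in uninjured muscle (5.05 ± 0.90, adjusted p = 0.000382, edgeR), and Erbb2 had 3.12 and 7.24 CPM, against 52.5 and 51.0 CPM (-3.32 ± 0.44, adjusted p = 2.14e-05, edgeR).

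Genes whose level over the 15 group means most resembled that of a member were looked up among 9201 genes, as a description with Pearson's r on log2 CPM. All genes were read in the same 30 libraries and so share their depth and scaling. Chrng was nearest to Myh3, the embryonic myosin heavy chain, at 0.94, and to Ccnb2, Cdkn3, Hmmr and Ube2c at 0.92 to 0.93. Chrna1 was nearest to Nradd at 0.96, Chrnd to Frrs1 at 0.94, Dok7 to Bcat1 at 0.93 and Lrp4 to Dock11 at 0.95. Musk was nearest to Zfp697 at 0.89, Chrnb1 to Maob at 0.91 and Rapsn to Aldh3b1 at 0.91. For Chrne the counts are too low for such a search. Among the members, Chrnd, Chrng and Dok7 followed each other most closely, at 0.80 to 0.87.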

How the data were processed

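RNA of satellite cells was measured in 30 libraries of 15 groups. Per the labels' protocols, RNA was extracted with a kit for fixed tissue, SMART-Seq v4 was used for polyA cDNA, Tn5 cut it into libraries, and reads were paired. The submitters' processing notes name Trimmomatic 0.36, HISAT2 2.1.0, SAMtools 1.3, StringTie 1.3.3 and mm10. How reads were counted, with which strand setting and which annotation release, is not given in the sources used here. The authors deposited whole-number counts per gene in 3 tables. The identifiers of 2 tables, 55450 each, all stand in GENCODE M21. Old cells have a table of 55335, of which 54587 do, so its identifiers are not all of that release, and 55154 matched over all 3 without versions.

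The tests were run on counts by edgeR 4.0.16 under R 4.3.3 (TMM scaling, edgeR's filterByExpr with a minimum count of 10 and a minimum total of 15, quasi-likelihood F test, Benjamini-Hochberg adjustment over all genes tested, threshold 0.05). Comparisons up to 60 h used the 18 libraries of their table (22479 genes), those among old cells their 6 libraries (30099), and the others all 30 (28823). CPM uses the TMM scale of all 30 libraries. Library totals of 9182407 to 57441790 counts limit precision for the lowest genes, and intervals and floors cover counting error only. The fits were tested on simulated data with known changes. In the fit to 60 h, 0 of 50 genes changed 2-fold passed, 5 of 50 changed 4-fold and 20 of 50 changed 16-fold. In the fit of all 30 libraries these numbers were 0, 5 and 21, and in old cells 1, 21 and 41. A gene that did not pass can thus still differ, and counts of calls from different fits are not alike in power. Gene models and exon lengths are GENCODE M21, and promoters are RefSeq on GRCm38.p6.

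The members and lists were chosen with earlier results of these data known. Wider genes named are drawn, in each list and comparison, from the up to 4 with the smallest adjusted p among those past the threshold. The genes nearest to a member are the 5 of highest Pearson's r over the 15 group means, among genes averaging at least 20 CPM in a group. Alternatives were RLE size factors, no filter, DESeq2 1.42.0, leaving out each library, a block for the replicate number, counts per coding length for the fetal share, and, added after seeing the data, a fit without the libraries of 0.5 to 4 h.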

Additional observations from a re-analysis of the deposited data

Results flagged for a closer look

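The change after injury differed between old cells (oASC minus oQSC) and the time course (60 h minus uninjured) for 6 of the genes, by the edgeR quasi-likelihood test of that difference with adjustment over all genes. Musk differed by a log2 change of -5.83. It was lower in oASC than in oQSC, and at 60 h both libraries lay above both uninjured ones. Erbb2 differed by 3.45 (adjusted p = 0.00135), with 38.1 and 34.8 CPM in oASC, 3.12 and 7.24 CPM in oQSC, 32.3 and 34.3 CPM at 60 h and 52.5 and 51.0 CPM in uninjured muscle. Abl1, a kinase that MuSK binds, differed by 2.33 (adjusted p = 0.00286), with 62.4 and 53.0 CPM in oASC, 13.5 and 18 CPM in oQSC, 33.9 and 33.5 CPM at 60 h and 51.4 and 41.2 CPM in uninjured muscle. Lama5 differed by 2.00 (adjusted p = 0.00672), Pak1 by -3.40 (adjusted p = 0.0393) and Gabpb1 by -4.27 (adjusted p = 0.0239). Musk, Erbb2 and Abl1 passed under each of their 13 alternatives. Lama5 did not pass in 3 of 13, Pak1 in 7 and Gabpb1 in 8. Both changes start from groups that themselves differed: Musk and each of the other 5 genes also passed in oQSC against uninjured muscle.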

How the results depend on the processing

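Of 9 members and the wider synapse genes, the counts that moved by over 1.5 times were the following, and no called value reversed its direction. Without the filter on low counts the members called were 2 at 8 h, 2 at 32 h, 2 at 7 d, 4 at 14 d and 2 for the difference in injury response, and the wider genes called were 4 for 60 h against 32 h and 10 at 28 d. DESeq2 called 2 members at 16 h, 1 at 32 h and 2 for the difference in injury response, and 17 wider genes early, 17 at 32 h, 18 at 60 h, 6 for 60 h against 32 h, 18 at 7 d, 12 at 28 d and 10 for the difference in injury response. The fit without the libraries of 0.5 to 4 h, chosen after seeing the data, called 4 members at 16 h, 2 at 32 h, 6 for 60 h against 32 h, 2 at 7 d, 4 at 14 d and 2 for the difference in injury response. Its wider genes were 18 at 32 h, 22 at 60 h, 9 for 60 h against 32 h, 16 at 7 d, 11 at 28 d and 11 for the difference in injury response. The share of all genes called moved as well. In that fit it was 38.8% at 16 h, 37.0% at 32 h, 44.4% at 60 h and 12.7% for 60 h against 32 h. It was 17.0% at 7 d, 19.0% at 14 d, 11% at 28 d and 13.2% for the difference in injury response. With DESeq2 it was 32.3% early, 35.2% at 16 h, 20.8% at 32 h, 39.6% at 60 h and 12.3% for 60 h against 32 h. It was 23.5% at 7 d, 17.7% at 28 d and 20.2% for the difference in injury response. Without the filter it was 19.7% at 8 h, 13.2% at 32 h, 6.76% at 7 d and 7.75% at 14 d. It was 3.44% for 60 h against 32 h, 4.05% at 28 d and 4.89% for the difference in injury response. The cause was not tested. Changes that were not called did change sign. At 14 d, without library 2, Chrnd was -1.85 and Rapsn -1.23, against 2.48 and 0.35 with it. Dok7 at 8 h was 1.29 without library 1 of uninjured muscle, against -0.05 with it. With RLE size factors Lrp4 at 32 h was -0.16, against 0.07 with TMM, and Chrnd in oFISC was 0.12, against -0.17. With the replicate number as a block 2 members were called at 16 h, where 19.5% of all genes were, and no other count moved by over 1.5 times. Deviations of same-numbered libraries correlated between -0.707 and 0.645 in the time course, with a median of -0.015. Whether libraries of the same number share an origin was not tested.

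When 1 library was left out, the lone partner was assumed to vary like the other groups, and at 60 h the share of all genes called was 13.4 to 14.4%. Members called then ranged from 0 to 2 early, 0 to 1 at 8 h, 0 to 0 at 16 h, 0 to 0 at 32 h, 5 to 5 at 60 h, 1 to 1 for 60 h against 32 h, 0 to 1 at 7 d, 0 to 2 at 14 d, 0 to 2 at 28 d, 4 to 5 for oFISC, 7 to 7 for oASC, 1 to 2 for oQSC against uninjured muscle and 1 to 1 for the difference in injury response. Wider genes ranged from 2 to 15 early, 3 to 7 at 8 h, 2 to 7 at 16 h, 2 to 7 at 32 h, 6 to 8 at 60 h, 1 to 1 for 60 h against 32 h, 1 to 2 at 7 d, 3 to 7 at 14 d, 1 to 6 at 28 d, 15 to 16 for oFISC, 26 to 32 for oASC, 8 to 10 for oQSC against uninjured muscle and 2 to 4 for the difference in injury response. Depth limits Chrne most, since no library held over 13 counts of it. RLE size factors in place of TMM moved the all-gene median of the log2 change by over 0.1 in some comparisons: this median was 0.109 with RLE, against 0.213 with TMM, early, -0.034 against 0.114 at 16 h, 0.014 against 0.252 at 32 h, 0.815 against 0.518 in oFISC and 0.364 against 0.492 in oQSC against uninjured muscle.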
